A study of Mus musculus with 18 samples.

Results

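Serpinb9 and its close relatives Serpinb9b, Serpinb9c, Serpinb9d, Serpinb9e, Serpinb9f and Serpinb9g were examined in mouse embryonic stem cells (ESCs), trophoblast stem cells (TSCs) and extraembryonic endoderm (XEN) cells grown in normoxia or hypoxia. These 7 genes are all those of the 14804 genes in the expression tables whose symbol is Serpinb9 with or without a letter from a to h. The TSC table listed 7 of them among 13518 genes. The ESC table listed only Serpinb9 and Serpinb9b among 13578 genes, and the XEN table listed the same 2 among 11538. The tables hold only genes above a low read level, so a gene that is not listed is not shown to be silent. The group was chosen by the TPM of Serpinb9g and Serpinb9d, which were higher in TSCs on day 7 of hypoxia than on day 2. That contrast is therefore described without a test.

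Bulk RNA-seq was carried out on cells kept in normoxia and on cells after 2 or 7 days of hypoxia. Each of the 9 groups had 2 biological replicates, which made 18 libraries. The ESCs were the E14 line, grown without feeder cells, and no line name is given for the TSCs or XEN cells. TSCs were kept on feeder cells and XEN cells in medium conditioned by feeders. No group carried a genetic change or a drug. ESC, TSC and XEN libraries held between 37760283 and 61958573, 43011670 and 49851162, and 35592641 and 75204029 gene reads, respectively. The defining markers matched the labels. Cdx2, Eomes, Elf5, Tfap2c and Gata3 summed to between 647 and 1180 transcripts per 1000000 (TPM) in the 6 TSC libraries. They reached at most 144 in ESCs and 6.36 in XEN cells, where 2 of the 5 were listed. Tfap2c alone gave 463 of the 647, as the other markers were lower on day 7 than on day 2. Pou5f1, Nanog, Zfp42, Klf4, Esrrb and Sox2 summed to at least 6442 in ESCs and at most 1289 elsewhere. Gata4, Gata6, Sox17, Sox7, Dab2 and Pdgfra summed to at least 1979 in XEN cells and at most 16.6 elsewhere.

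Serpins are protease inhibitors. An exposed stretch near the end of the protein, the reactive centre loop, acts as bait for the protease, is cut, and traps the enzyme in a covalent complex. The clade B members lack a classical secretion signal and act mostly inside cells. Serpinb9, also called SPI6, inhibits granzyme B, the protease by which cytotoxic T cells and natural killer cells trigger death of their targets, and Serpinb9b, also called SPI-CI, has been described as an inhibitor of granzyme M. Where humans have a single gene, SERPINB9, mice carry a local array of copies, several of which are known from placental trophoblast, a fetal tissue in direct contact with maternal immune cells. The targets of Serpinb9c to Serpinb9g are less well defined.

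The 7 genes lay within 492755 bases of chromosome 13 (GRCm38, GENCODE positions), and 6 were on the plus strand. Serpinb9 (ENSMUSG00000045827) was at chr13:33003250-33017957 and Serpinb9b (ENSMUSG00000021403) followed it at chr13:33027416-33041884. Serpinb9c (ENSMUSG00000021404) was the only one on the minus strand, at chr13:33149275-33159742. Serpinb9d (ENSMUSG00000054266) was at chr13:33192959-33203129, Serpinb9e (ENSMUSG00000062342) at chr13:33249612-33260850, Serpinb9f (ENSMUSG00000038327) at chr13:33324077-33335370 and Serpinb9g (ENSMUSG00000057726) at chr13:33484790-33496004. Gm11397, which RefSeq names Serpinb9h, lay between Serpinb9f and Serpinb9g and was in none of the 3 tables.

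**Figure D1:**
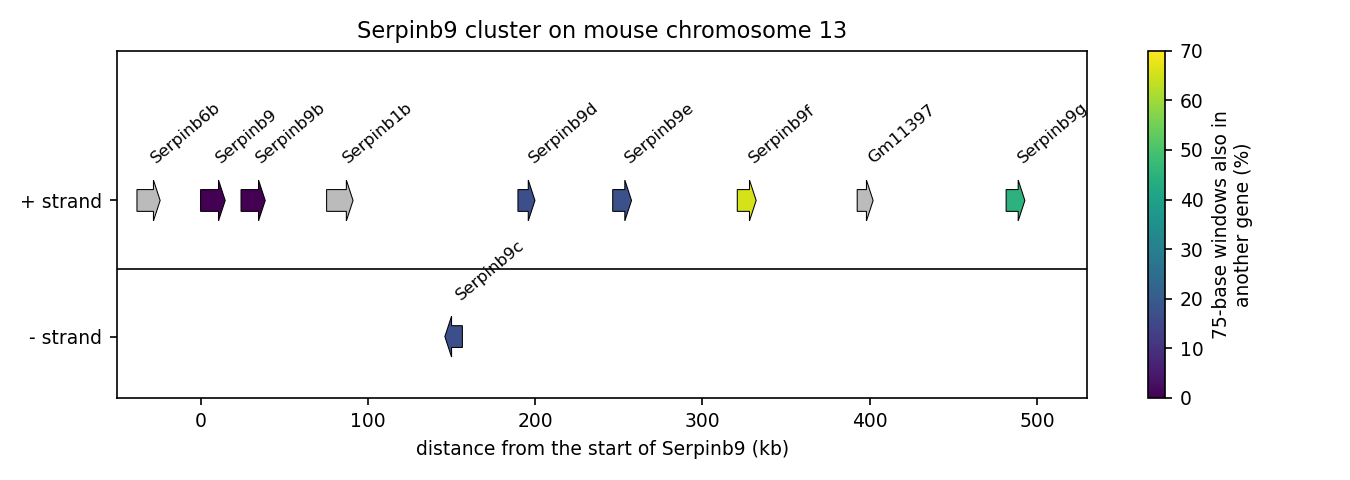
Gene arrows of the Serpinb9 cluster on mouse chromosome 13, plotted by distance from the start of Serpinb9 in kb and by strand; colour gives the percent of a member's 75-base transcript windows that also occur in another gene, and grey genes are not members. Serpinb9 and Serpinb9b are at 0%, Serpinb9g at 44.9% and Serpinb9f at 65.5%.

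The copies were compared over their coding sequence and over the bases that encode the loop. Coding sequences of Serpinb9d, Serpinb9e, Serpinb9f and Serpinb9g were between 94.3% and 98.7% identical in GENCODE transcripts, and over all 21 pairs of members the identity ran from 74.5% to 98.7%. The stretch that encodes the variable part of the loop is shown for every member, because this part of a serpin meets the protease and its bases differed more between the copies than the rest of the coding sequence did on average. The bases in capitals lie between 2 conserved blocks, of which the adjoining 12 and 9 bases are in lower case, and 78 coding bases follow in each gene.
Serpinb9: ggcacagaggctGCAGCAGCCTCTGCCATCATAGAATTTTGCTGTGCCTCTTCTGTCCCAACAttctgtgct
Serpinb9b: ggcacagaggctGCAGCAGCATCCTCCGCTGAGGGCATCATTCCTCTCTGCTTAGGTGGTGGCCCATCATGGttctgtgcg
Serpinb9c: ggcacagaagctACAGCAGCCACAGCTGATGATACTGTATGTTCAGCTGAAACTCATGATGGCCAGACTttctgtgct
Serpinb9d: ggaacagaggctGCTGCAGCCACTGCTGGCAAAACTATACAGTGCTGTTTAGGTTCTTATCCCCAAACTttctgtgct
Serpinb9e: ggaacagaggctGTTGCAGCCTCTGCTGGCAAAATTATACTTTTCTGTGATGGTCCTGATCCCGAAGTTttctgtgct
Serpinb9f: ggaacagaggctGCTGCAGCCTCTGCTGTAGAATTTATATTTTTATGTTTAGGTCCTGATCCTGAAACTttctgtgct
Serpinb9g: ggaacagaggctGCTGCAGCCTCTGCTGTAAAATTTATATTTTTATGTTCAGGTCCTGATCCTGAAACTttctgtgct
Among Serpinb9d to Serpinb9g the capital stretch was between 73.7% and 96.5% identical and the rest of the coding sequence between 95.3% and 98.8%. The median over all 21 pairs was 59.6% for the stretch and 82.3% for the rest. Serpinb9f and Serpinb9g were the closest pair, at 96.5% in the stretch and 98.7% over the coding sequence. Serpinb9 had 51 bases between the blocks, Serpinb9b 60 and each of the others 57.

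Near-identical copies bear on what a read can tell. Reads were 75 bases long, so every 75-base window of a member's transcripts was looked up in the transcripts of all other genes. No window of Serpinb9 or Serpinb9b occurred elsewhere. The share was 17.0% for Serpinb9c, all of it with Gm11385, 16.8% for Serpinb9d and 17.5% for Serpinb9e. It reached 65.5% for Serpinb9f, with 52.3% shared with Gm11397, and 44.9% for Serpinb9g, with 38.1% shared with Gm11397. How reads that match several genes were counted is not given in the sources used here. The values of Serpinb9f and Serpinb9g are therefore uncertain as to which copy their reads came from, and those of Serpinb9c, Serpinb9d and Serpinb9e less so. A non-coding gene on the opposite strand, Gm36099, lies within Serpinb9b, and whether counting used strand is also not stated.

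Upstream of the starts, Serpinb9d to Serpinb9g were again the most alike. Over the 250 bases before the RefSeq start (GRCm38.p6), Serpinb9d to Serpinb9g were between 80.4% and 92.9% identical. Serpinb9c was between 55.7% and 62.8% identical to those 4, and Serpinb9 and Serpinb9b were between 40.8% and 45.5% identical to the other 5. The last 90 bases before each start are shown, in the direction of transcription, because they hold 6 letters that part the members. The capitals mark TGACGT, a part of the cAMP response element.
Serpinb9: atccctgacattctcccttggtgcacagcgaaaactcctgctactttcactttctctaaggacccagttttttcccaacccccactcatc
Serpinb9b: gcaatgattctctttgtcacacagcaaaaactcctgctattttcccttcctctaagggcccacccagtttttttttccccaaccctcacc
Serpinb9c: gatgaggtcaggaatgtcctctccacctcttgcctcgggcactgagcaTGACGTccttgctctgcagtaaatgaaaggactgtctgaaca
Serpinb9d: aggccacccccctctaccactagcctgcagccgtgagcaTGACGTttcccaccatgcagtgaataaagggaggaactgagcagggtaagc
Serpinb9e: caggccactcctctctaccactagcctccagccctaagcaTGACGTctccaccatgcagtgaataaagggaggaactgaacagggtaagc
Serpinb9f: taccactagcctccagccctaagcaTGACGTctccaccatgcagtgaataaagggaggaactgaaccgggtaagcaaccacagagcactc
Serpinb9g: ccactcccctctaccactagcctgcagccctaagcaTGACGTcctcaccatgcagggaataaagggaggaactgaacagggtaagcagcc
The window of Serpinb9d was chr13:33192865-33192954 on the plus strand. The window of Serpinb9g was chr13:33484700-33484789 on the plus strand. TGACGT occurred in 5 of the 7 windows, those of Serpinb9c to Serpinb9g, with its first base between 42 and 65 bases before the start, and in neither Serpinb9 nor Serpinb9b. It was looked for on both strands, and after it had been noticed in these windows. Among 32851 mouse promoters, 3.84% held it in the same 90 bases. The window of Serpinb9 lies in an intron of a longer GENCODE transcript of that gene. The core letters bound by hypoxia-inducible factors, ACGTG or GCGTG, were in none of the 7 windows of 300 bases around the main starts, against 43.8% of all promoters. A second RefSeq start of Serpinb9c had a match. GATAA was in none of the 7 (25.4% of promoters), although that second start had 1 match. TATAAA was in none (13.6%), whereas GCCNNNGGC, an AP-2 motif, was at the main start of Serpinb9c only (16.6%). All motifs were searched on both strands. TGACGT and ACGTG share 4 letters and can overlap, and a match describes letters and not binding.

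In TSCs all 7 genes were detected in every library, at the lowest with 109 reads. The TPM given in the next paragraphs are the deposited ones, which were scaled by the distance from the start to the end of a gene, introns included. They serve to compare libraries for a single gene. For levels between members, TPM were computed again from the recovered reads with exon length. Sums over marker and gene lists, including the marker sums above, stayed on the deposited scale. On that scale a gene with a long span counts for less, so the share of a gene in such a sum depends on the scale.

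On the exon-length scale, Serpinb9b was the most abundant member in TSCs in each condition, with a mean of 226 TPM in normoxia, 112 on day 2 and 321 on day 7. Serpinb9e followed at 123, 48.7 and 260, and Serpinb9d at 66.9, 26.2 and 153. Serpinb9c was at 40.5, 16.0 and 87.5, and Serpinb9g at 38.7, 12 and 72.5. Serpinb9f, at 23.2, 9.24 and 49.7, and Serpinb9, at 17.3, 11.4 and 34.6, were the lowest. The libraries of Serpinb9b and Serpinb9e overlapped in normoxia but not on day 2 or day 7. Serpinb9c and Serpinb9g overlapped in every condition. On day 2 every pair of neighbours in the order overlapped except Serpinb9b and Serpinb9e. Serpinb9b made up between 30.8% and 58.1% of the summed exon-length TPM of the members, with the highest share in the lower of the day 2 libraries and the lowest in a day 7 library.

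The granzyme B inhibitor Serpinb9 was at 13.1 and 12.8 TPM in the normoxic TSC libraries (replicates 1 and 2), at 6.55 and 10.6 on day 2 and at 31.4 and 18.8 on day 7. Serpinb9b was at 107 and 221 TPM in normoxia, 68.9 and 95.6 after 2 days and 245 and 207 after 7 days. Both day 2 libraries lay below both normoxic libraries for each of these genes. On day 7 Serpinb9 was above normoxia in both libraries, whereas for Serpinb9b the day 7 libraries lay on either side of the higher normoxic one.

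Serpinb9c, the copy on the opposite strand, was at 20.8 and 27.7 TPM in normoxia, at 6.02 and 13.3 on day 2 and at 60.9 and 41.0 on day 7. Serpinb9d was at 20.4 and 31.1 TPM in normoxia, at 4.0 and 16.4 on day 2 and at 70.4 and 44.3 on day 7. The 3 conditions did not overlap for either gene. The day 2 libraries of Serpinb9d differed 4.09-fold from each other, more than its normoxic libraries, which differed 1.52-fold.

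Serpinb9e was at 46.6 and 84.9 TPM in normoxia, at 15.9 and 36.8 on day 2 and at 159 and 112 on day 7. Serpinb9f was at 9.69 and 15.0 TPM in normoxia, at 2.78 and 7.11 on day 2 and at 29.6 and 21.6 on day 7. Serpinb9g was at 11.6 and 30.0 TPM in normoxia, at 2.44 and 10.6 on day 2 and at 42.1 and 33.6 on day 7. In all 3 genes both day 2 libraries were lowest and both day 7 libraries highest. The gap between groups was narrow for Serpinb9g, where day 2 replicate 2, at 10.6, came close to normoxia replicate 1, at 11.6.

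**Figure D2:**
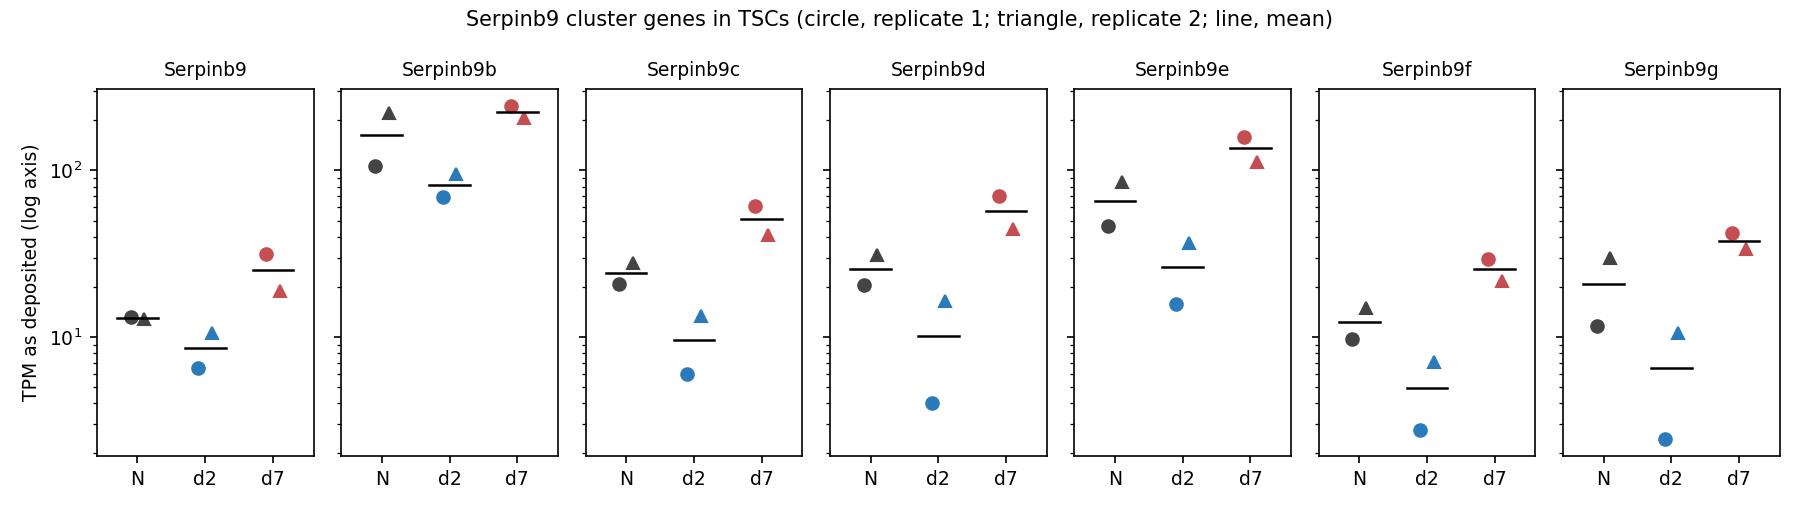
Deposited TPM (log axis) of the 7 Serpinb9 cluster genes in each TSC library in normoxia (N) and on days 2 (d2) and 7 (d7) of hypoxia; circles are replicate 1, triangles replicate 2 and lines the mean of 2 libraries. In each panel both day 2 libraries lie below both normoxic ones, and the day 7 libraries lie above normoxia in all but Serpinb9b.

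Set against normoxia, day 2 of hypoxia gave lower values for the whole cluster. The log2 fold change of TPM plus 0.5 was -1.37 (SE 0.39) for Serpinb9c, -1.36 (SE 0.45) for Serpinb9e and -1.33 (SE 0.43) for Serpinb9f. It was -0.91 (SE 0.35) for Serpinb9b and -0.60 (SE 0.33) for Serpinb9. Serpinb9d and Serpinb9g, whose day 2 libraries entered the choice of the group, were at -1.56 (SE 0.59) and -1.76 (SE 0.66) and were not tested. Of the 5 members that did not enter the choice, 5 had both day 2 libraries below both normoxic ones, as did 16.9% of the 12481 genes tested in TSCs, and 5 were more than 1.5-fold lower, as were 6.45% of genes. These 5 are not independent of the chosen genes or of one another. Members correlated at 0.85 to 0.998 over the TSC libraries, and Serpinb9e and Serpinb9f share sequence with Serpinb9d or Serpinb9g. The counts are therefore a description. Their median log2 fold change was -1.33, beside 0.07 over all genes. Single libraries moved these sizes. Without day 2 replicate 1, the values were -0.28 for Serpinb9, -0.68 for Serpinb9b, -0.83 for Serpinb9c, -0.77 for Serpinb9e and -0.72 for Serpinb9f. Serpinb9d and Serpinb9g were then at -0.61 and -0.80. Serpinb9b was at -0.39 without normoxia replicate 2 and -1.44 without normoxia replicate 1. Serpinb9 was at -0.93 without day 2 replicate 2, and leaving out normoxia replicate 1 took it just under 1.5-fold, to -0.58.

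None of the 5 members tested passed the threshold for day 2, an adjusted p of 0.1 with a fold change over 1.5 in limma. The share of all genes called was 0.2%. At the same cut-offs the study, with edgeR, reported many more changed TSC genes on day 2 and on day 7 than were called here. The limma adjusted p-values of the 5 members ran from 0.245 for Serpinb9c to 0.475 for Serpinb9. At an unadjusted p under 0.05 there were 4 of 5 with limma and 4 of 5 with voom on recovered reads, which called 0, beside 13.1% of all genes with limma. The replicates differed by up to 4.32-fold within a condition (Serpinb9g on day 2), and 2 libraries against 2 cannot give an exact permutation p below 0.333. The limma p-values rest on the spread between the 2 replicates of every condition in the fit, day 7 included, drawn towards a trend over all genes. The 5 members are not independent tests.

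After 7 days the values were above normoxia. The log2 fold change was 1.08 (SE 0.45) for Serpinb9e, 1.04 (SE 0.39) for Serpinb9c, 1.04 (SE 0.43) for Serpinb9f and 0.88 (SE 0.33) for Serpinb9. Serpinb9d and Serpinb9g, again without a test, were at 1.13 (SE 0.59) and 0.99 (SE 0.66). Serpinb9b was at 0.55 (SE 0.35) with overlapping libraries. Of the 5 members that did not enter the choice, 4 had both day 7 libraries above both normoxic ones, as did 8.98% of all genes, and 4 were more than 1.5-fold higher, as were 3.21% of genes. As on day 2, these counts are a description, since the members are not independent of the chosen genes or of one another. Their median was 1.04, while that over all genes was -0.18. With libraries scaled by the median ratio over genes, which brings the median of all genes to -0.01, the 5 tested members were between 0.74 (Serpinb9b) and 1.27 (Serpinb9e).

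None of the 5 members tested was called on day 7 either, where 0.385% of all genes were. The limma adjusted p-values ran from 0.422 for Serpinb9 to 0.642 for Serpinb9b. At an unadjusted p under 0.05 there were 4 of 5 with limma and 4 of 5 with voom, which called 0, beside 10.4% of all genes with limma. The 5 members are again not independent tests. Without normoxia replicate 1, the value was 0.03 for Serpinb9b, 0.65 for Serpinb9e and 0.32 for Serpinb9g, and without normoxia replicate 2 it was 1.07 for Serpinb9b and 1.65 for Serpinb9g. Without day 7 replicate 1, Serpinb9 was at 0.52.

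Between day 2 and day 7, the contrast behind the choice, the log2 fold change was 2.74 for Serpinb9g and 2.69 for Serpinb9d. Serpinb9e was at 2.44, Serpinb9c at 2.41 and Serpinb9f at 2.37. Serpinb9 and Serpinb9b, at 1.49 and 1.47, were lower than those 5. The libraries did not overlap for any of the 7 (14.3% of all genes were higher without overlap, and 2.37% were called higher), and nothing is read from this count. Together the 7 genes took 230 and 454 of every 1000000 gene reads in normoxia, 115 and 201 after 2 days and 656 and 580 after 7 days. As the RNA came from whole cultures, fewer cells expressing these genes and less of their RNA per cell cannot be told apart.

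**Figure D3:**
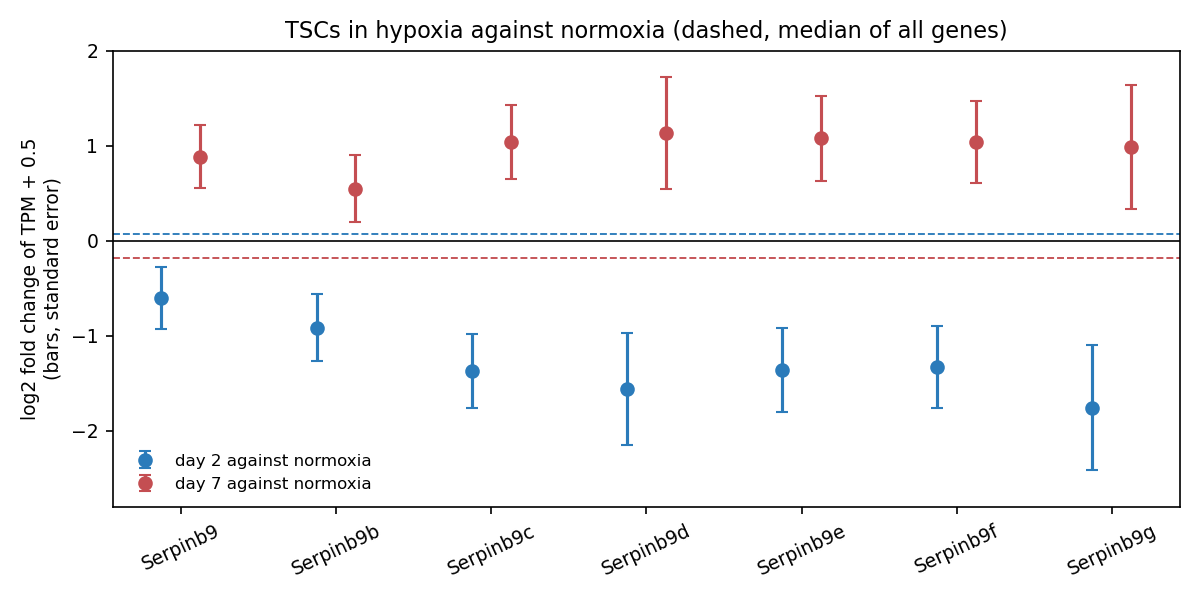
Log2 fold change of TPM plus 0.5 in TSCs on day 2 (blue) and day 7 (red) of hypoxia against normoxia, with bars of 1 standard error from the fit to 6 libraries; dashed lines mark the median of all genes, 0.07 and -0.18. All 7 members lie below 0 on day 2 and above 0 on day 7, and the 2 contrasts share their normoxic libraries.

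The members moved together from library to library. Over the 6 TSC libraries the Pearson correlation of log2(TPM + 0.5) between 2 members ran from 0.85 to 0.998, with a median of 0.97 over 21 pairs. The libraries share the 3 conditions, and Serpinb9d to Serpinb9g share transcript windows of read length, so these are descriptions. Serpinb9c shared such windows with Gm11385 only and with no other member. Its r with the other members ran from 0.937 (Serpinb9b) to 0.997 (Serpinb9f). Among 4935 other genes with a range of at least 1 on the log2 scale, those most like Serpinb9d were Paqr4 (r = 0.993), Trpv2 (0.992), Snx1 (0.992), Tgm2 (0.992) and Pld2 (0.991). Trpv2 encodes a cation channel, Tgm2 a transglutaminase that cross-links proteins and Pld2 a phospholipase. Those most like Serpinb9g were Islr2 (0.990), Tor1aip1 (0.987), Tgm2 (0.985), Rhox12 (0.984) and Pdgfa (0.984). Rhox12 is a homeobox gene and Pdgfa encodes a growth factor. Tgm2, named for both, was at 197 and 339 TPM in normoxia, 70.6 and 192 after 2 days and 664 and 498 after 7 days. Of the 4935 genes, 42 had an r over 0.95 with Serpinb9d and 35 with Serpinb9g.

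In ESCs, only Serpinb9 and Serpinb9b were in the table, both at low levels. Serpinb9 was at 1.42 and 0.885 TPM in normoxia, 1.11 and 1.16 after 2 days and 2.09 and 2.05 after 7 days, from between 58 and 146 reads. Both day 7 libraries lay above the other 4, and 23% of genes were higher on day 7 without overlap against normoxia and 15.2% against day 2. Its log2 fold change was 0.65 (SE 0.21) on day 7 against normoxia and 0.65 (SE 0.21) against day 2, with limma adjusted p-values of 0.411 and 0.829. Against normoxia on day 2 it was 0.0020 (SE 0.21; adjusted p = 0.999). Serpinb9b was at 10.5 and 7.15 TPM in normoxia, 11.4 and 4.76 after 2 days and 9.11 and 12.6 after 7 days, with overlapping libraries in each comparison. Its limma log2 fold changes were -0.21 (SE 0.37; adjusted p = 0.987) on day 2 and 0.29 (SE 0.37; adjusted p = 0.963) on day 7.

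In XEN cells, Serpinb9 was at 1.93 and 0.999 TPM in normoxia, 3.02 and 2.38 after 2 days and 3.50 and 1.83 after 7 days, from between 70 and 233 reads. Both day 2 libraries were above both normoxic ones, as in 19.6% of genes, and the day 7 libraries spanned a wider range. The limma log2 fold change was 0.74 (SE 0.35; adjusted p = 0.685) on day 2 and 0.68 (SE 0.35; adjusted p = 0.630) on day 7. Serpinb9b was at 49.8 and 9.66 TPM in normoxia, 28.1 and 26.5 after 2 days and 30.0 and 11.5 after 7 days. Its normoxic libraries differed 5.16-fold and enclosed all the hypoxic ones. Its limma log2 fold changes were 0.30 (SE 0.74; adjusted p = 0.923) and -0.24 (SE 0.74; adjusted p = 0.944).

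No member was called in any ESC or XEN comparison. The share of all genes called in ESCs was 0% on day 2 and 0.758% on day 7 against normoxia and 0.179% on day 7 against day 2. In XEN cells it was 0%, 0.11% and 0.0367%. At an unadjusted p under 0.05 with limma, Serpinb9 passed in both ESC comparisons of day 7, beside 8.04% of genes against normoxia and 4.26% against day 2. Neither gene passed on day 2 in ESCs (5.05% of genes), nor in XEN cells on day 2 (7.77%) or day 7 (9.01%) against normoxia or between the days (11.9%). Voom on recovered reads gave the same counts. Serpinb9b was above Serpinb9 without overlap in every condition of ESCs and XEN cells on the exon-length scale, with means of 12.8 and 1.63 TPM in normoxic ESCs and 39.6 and 1.90 in normoxic XEN cells. The normoxic TSC means were 226 and 17.3. The tables were normalized separately, so the levels are set side by side across cell types without a test.

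**Figure D4:**
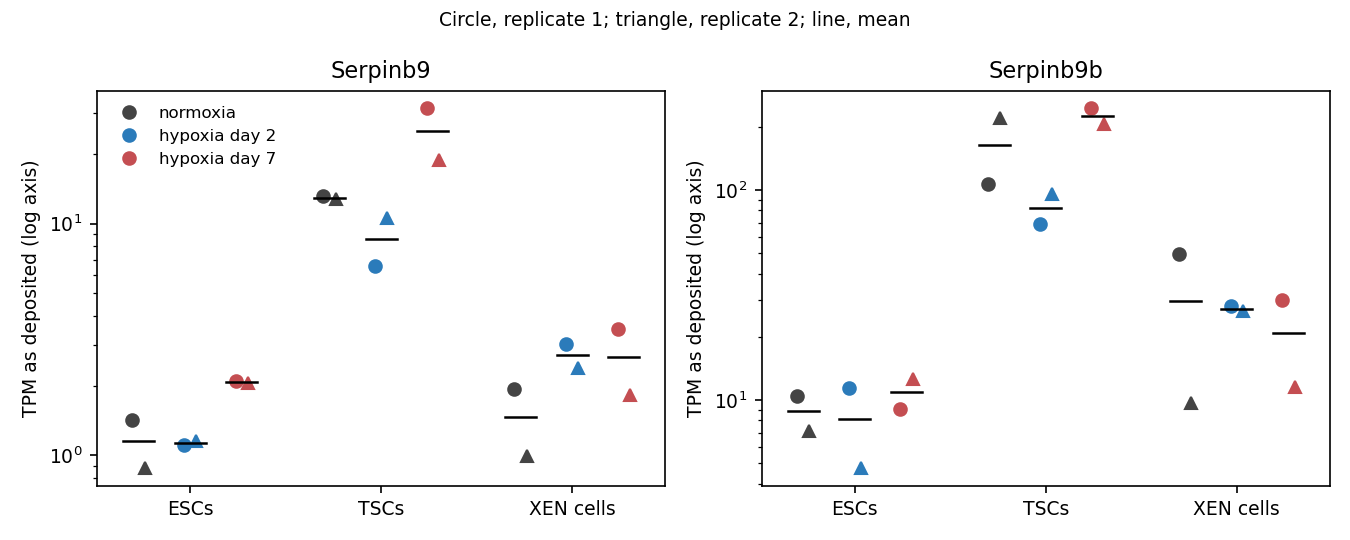
Deposited TPM (log axes, which differ between the panels) of Serpinb9 and Serpinb9b in each library of ESCs, TSCs and XEN cells, coloured by condition; circles are replicate 1, triangles replicate 2 and lines the mean of 2 libraries. Serpinb9 stays under 4 TPM in ESC and XEN libraries and above 6 in TSC libraries.

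The genes around the cluster and other clade B serpins did not share one pattern. Of 20 other clade B serpins listed, 7 were in the TSC table and 5 were tested. In either comparison with normoxia, 0 were called, and the median log2 fold change was 0.65 on day 2 and -0.35 on day 7. Serpinb6b, which lies just before Serpinb9, was at 15.2 and 38.2 TPM in normoxia, 31.1 and 47.0 after 2 days and 64.6 and 61.6 after 7 days. Serpinb1a, an inhibitor of neutrophil proteases farther upstream, was at 1.10 and 0.419 TPM in normoxia, 3.42 and 2.16 after 2 days and 0.0566 and 0.213 after 7 days. It fell between day 2 and day 7 by 2.36 on the log2 scale (SE 0.36; limma adjusted p = 0.0214), where 13.8% of all genes were called lower. It was the only 1 of the 5 called between these days, and both its day 7 values were under 0.4 TPM.

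Neither Gzmb, which encodes granzyme B, nor Prf1, which encodes the pore-forming protein perforin, was listed in any of the 3 tables. Gzmm, which encodes granzyme M, was at 1.60 and 3.01 TPM in normoxic TSCs, 3.62 and 2.10 on day 2 and 1.69 and 1.63 on day 7. Ctsc, whose product activates granzymes, and Gzme were the other granule genes in the TSC table, and 0 of the 3 were called against normoxia. Among genes through which cytotoxic cells recognise and kill a target, 0 of 15 tested MHC class I and NK ligand genes and 0 of 10 death receptor and caspase genes were called on day 2 or day 7 against normoxia. The median log2 fold changes of the 2 lists were 0.08 and -0.07 after 2 days and -0.14 and -0.32 after 7 days.

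The stem cell and differentiation genes of TSCs moved over the same days. Of 14 trophoblast stem cell genes, 0 were called on day 2 against normoxia and 4 were lower on day 7, among them Sox2 (-2.20), Elf5 (-1.78) and Lin28a (-1.78), where 0.345% of all genes were called lower. Between day 2 and day 7, 12 of the 14 fell. Their summed TPM was between 2850 and 2872 in normoxia, 3546 and 4160 after 2 days and 1149 and 1278 after 7 days. The order of these sums was the reverse of that of the Serpinb9 genes. Sox2 and Id2 gave much of the sum. Sox2 was at 660 and 714 TPM in normoxia and 1045 and 1104 on day 2. Id2 was at 673 and 682, then at 1775 and 730. On day 2 against normoxia, 10 of the 14 had a positive log2 fold change and 4 a negative one. Cdx2 (-0.11), Eomes (-0.17) and Tfap2c (-0.16) were among the 4. Of 22 trophoblast differentiation genes tested, Plac8 was higher (3.69) and Gjb2 lower (-2.35) on day 7 against normoxia, where 0.0401% of all genes were called higher. Between day 2 and day 7, 4 rose, namely Plac8, Plac1, Prl3d1 and Plet1, and 3 fell, namely Gjb2, Gcm1 and Ascl2, where 2.37% of all genes were called higher and 13.8% lower. Prl3d1 is a hormone gene of trophoblast giant cells. Of 15 hypoxia response genes, 6 were higher on day 2 (0.192% of all genes) and 0 were called on day 7 against normoxia, with medians of 1.72 and 0.41. The part of differentiation in the Serpinb9 values was not tested. These calls depended on which libraries were included. Without day 7 replicate 1 or replicate 2, 0 of all genes were called on day 7 against normoxia, beside 48 with all libraries and 185 without normoxia replicate 2. Between day 2 and day 7, 2019 genes were called with all libraries, 0 without day 7 replicate 2, 30 without day 2 replicate 1, 284 without day 7 replicate 1 and 1519 without day 2 replicate 2. On day 2 against normoxia 25 were called, and 0 without either day 2 library.

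Feeder RNA varied between TSC libraries. The 17 feeder and fibroblast markers, all in the table, summed to 3556 and 460 TPM in normoxia, 539 and 2007 after 2 days and 781 and 416 after 7 days, so the ranges of the 3 conditions overlapped. Within normoxia the members' summed reads were lower in the library with more feeder RNA, and within day 2 and within day 7 they were higher in it. None of the 17 was called against normoxia, with medians of -0.42 on day 2 and -0.69 on day 7. Of 10 immune cell markers, 6 were in the table. The leukocyte marker Ptprc was at most 0.459 TPM, Itgam 0.527 and Adgre1 0.561, while Cd3e, Ncr1 and Klrb1c were not listed. These are deposited values, scaled by a length with introns included, and are not comparable with exon-length TPM. The summed immune markers, between 287 and 572 TPM in normoxia, 358 and 682 after 2 days and 296 and 518 after 7 days, came mostly from Cd68 and Csf1r. The part of feeder and immune cell RNA in the Serpinb9 values was not tested.

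**Figure D5:**
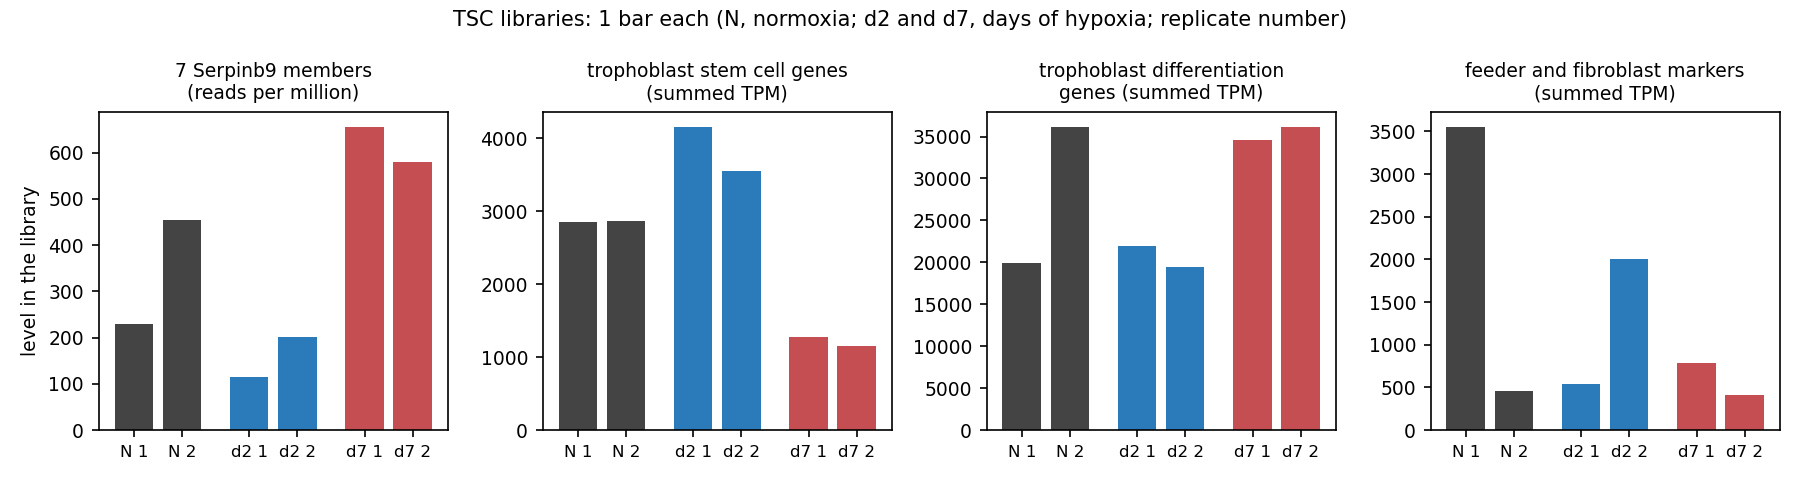
Bars for the 6 TSC libraries of the reads of the 7 Serpinb9 cluster genes per 1000000 gene reads and of summed TPM as deposited. The sums are of trophoblast stem cell genes, trophoblast differentiation genes and feeder and fibroblast markers. Every panel has its own axis from 0. The Serpinb9 genes are lowest on day 2 (115 and 201) and highest on day 7 (656 and 580). The summed stem cell genes show the reverse order, though 4 of the 14 had a negative fold change on day 2. The feeder markers are highest in normoxia replicate 1 (3556) and day 2 replicate 2 (2007).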

How the data were processed

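RNA was sequenced in 75-base paired-end reads. Per the labels and the study's methods, the authors trimmed reads with cutadapt 2.4, aligned them with STAR 2.7.5a to mm10 and counted them on GENCODE genes with featureCounts. The authors filtered to protein-coding genes that exceeded 0.4 CPM in 2 or more of the 6 libraries (edgeR 3.26.8) and deposited TPM in a table per cell type. Whether counting used strand, and how reads matching several genes were treated, is not given in the sources used here. Columns marked D0 were read as normoxia.

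TPM multiplied by gene span fell within 0.05 of whole multiples of a step for between 98.7% and 98.9% of values per library (9.78% to 10.6% with exon length), which gave back the reads behind them. Here log2(TPM + 0.5) of genes above 0.4 TPM in at least 2 of 6 libraries was fitted with limma 3.58.1 (R 4.3.3) per cell type, with a mean-variance trend. A gene was called at a fold change above 1.5 and a p of 0.1 or less after Benjamini-Hochberg adjustment over all genes tested. All members passed the filter. The fit and the recovery of reads were tested on simulated data. Coding and upstream sequences came from GENCODE M21 and RefSeq, and identities were computed with Biopython 1.88.

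The members, gene lists and comparisons were chosen with earlier results of these data known. The value of 1 immune cell marker is not reported here. Named genes were all members, the 5 genes most like Serpinb9d and Serpinb9g, and at most 3 called genes per list and direction, with Gzmm and Serpinb6b given as a known target and a neighbour after their values were seen. Alternatives were pseudocounts of 0.1 and 1, filters of 1 TPM or none, median-ratio scaling, exon length, voom, the 4 libraries compared, each library left out and a replicate block.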

Additional observations from a re-analysis of the deposited data

Results flagged for a closer look

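Serpinb9 values lay on opposite sides of normoxia in TSCs and XEN cells on day 2 of hypoxia. Its log2 fold change against normoxia was -0.60 in TSCs, where both day 2 libraries were below both normoxic ones, as in 16.9% of genes. It was 0.74 in XEN cells, where both were above, as in 19.6% of genes. Without day 2 replicate 1 the TSC value was -0.28, and with a library left out the XEN value was at least 0.39. The difference between the cell types was not tested, since the tables were normalized separately, and neither fold change passed the threshold within its cell type. With 2 libraries per group, no test for a single outlying library was possible.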

How the results depend on the processing

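Of 339 recomputed fold changes of members in the comparisons tested for them, 326 kept their direction and their side of the threshold, and 13 changed sign, 7 of 92 in ESCs, 6 of 92 in XEN cells and 0 of 155 in TSCs. Part of these could not change sign. The fit to the 4 libraries compared, the replicate block and leaving out a library of the condition not compared return the same fold change. In those settings only the p-value could move. No member was called under any alternative in a tested comparison, and the lowest adjusted p was 0.106 for Serpinb9c in TSCs on day 2 (with crossed replicate numbers) and 0.157 for Serpinb9b on day 7 (without normoxia replicate 2). For Serpinb9 in ESCs on day 2 against normoxia, the log2 fold change was -0.0019 with a pseudocount of 1, -0.0069 with median-ratio scaling and from -0.23 to 0.24 with a library left out. With a library left out, Serpinb9b in ESCs ranged from -0.80 to 0.38 on day 2 against normoxia and from -0.089 to 1.09 on day 7 against day 2. In XEN cells it ranged from -0.86 to 1.45 on day 2 and from -1.39 to 0.91 on day 7 against normoxia, and from -1.21 to 0.14 on day 7 against day 2. Serpinb9 in XEN cells ranged from -0.46 to 0.33 on day 7 against day 2. The cause was not tested.

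Libraries of different conditions share replicate numbers, and no source says that a number pairs them. Deviations of same-numbered libraries correlated between -0.46 (TSCs, day 2 against normoxia) and 0.27 (TSCs, day 7 against normoxia). With the replicate block 0 tested members were called, and its calls over all genes were 3 on day 2 and 13 on day 7 in TSCs, beside 25 and 48 without it. Crossed numbers, added after seeing these correlations, gave 0 members and 326 genes on day 2. Serpinb9 rested on at most 146 reads per library in ESCs and 233 in XEN cells.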
